A study of Brassica rapa with 12 samples.

Results

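The genes read in Chiifu only were 77 of the 41018 features with an ID that starts with Bra, in tables that list 42186 features in all. A gene was taken as one of them if it had at least 1 CPM (the count scaled to a library total of 1000000) in each of the 6 Chiifu libraries and a count of 0 in each of the 6 LP08 libraries. These values chose the genes, so their presence in Chiifu and absence in LP08 is a description and was not tested. None of the 1168 features with an ENSRNA prefix met the same counts.

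The study sequenced polyadenylated RNA from whole seedlings of *Brassica rapa* that were 1 week old, from the lines Chiifu and LP08. The groups were Chiifu seedlings under a cycle of 16 h of light and 8 h of dark, Chiifu seedlings in 24 h of dark, LP08 seedlings under the same cycle and LP08 seedlings in 24 h of dark. There were 3 libraries per group and 12 in all. The labels name no added agent or transgene, and leave out how many days the seedlings in 24 h of dark had been kept so. They also leave out whether the 3 libraries of a group came from separate plants or cultures, so the p-values measure only the spread between these libraries. Library totals lay between 48773088 and 71764062 counts, and together the 6 LP08 libraries held 331071290 counts.

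*Brassica rapa* is a leafy and oilseed crop species, and Chiifu is a Chinese cabbage line on which reference genomes of the species have been built. Lines of one *Brassica* species can differ in which genes they carry, and reads can be counted for a gene only if they align to the copy in the annotation used. A gene that a line lacks, a gene that it carries but does not transcribe, and a copy too different for its reads to align all give a count of 0, and these counts cannot tell them apart. Light-grown seedlings open and green their cotyledons, whereas seedlings in the dark elongate their hypocotyls, and large parts of the transcriptome differ between these states.

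The deposited tables give IDs without names. Of the 42186 IDs, 1 could be found in RefSeq's gene table for the assembly CAAS_Brap_v3.01, Bra000116, which is not among the 77. The genes are therefore given by ID, without names, roles, sequences or positions, and the labelled tissue was not checked against marker genes. Bra numbers are used here as an order of IDs. That successive numbers are neighbours on a chromosome was not tested.

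In LP08, 5837 Bra features had no read, and 3715 of these had no read in Chiifu either. The other 2122 had some read in Chiifu, and 2045 of them fell short of 1 CPM in at least 1 Chiifu library. The 77 genes made up 0.355% of the 21682 Bra features that had at least 1 CPM in all 6 Chiifu libraries. The rule with the lines exchanged gave 35 genes read in LP08 only, which were 0.168% of the 20849 Bra features at or above 1 CPM in all 6 LP08 libraries.

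The 77 genes were of low abundance in Chiifu. Their mean over the 6 Chiifu libraries had a median of 4.05 CPM and ranged from 1.34 to 22.5 CPM. All Bra features at or above 1 CPM in every Chiifu library had a median of 17.4 CPM, and 2 of the 77 genes lay above it. A mean of at least 5 CPM was reached by 31 genes, of at least 10 CPM by 10 genes and of at least 20 CPM by 1 gene. The 35 genes read in LP08 only had a like range in LP08, from 1.70 to 19.4 CPM with a median of 3.53 CPM.

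The share of expressed features without an LP08 read fell with the level in Chiifu. Among features with a mean of 1 to 2 CPM in Chiifu it was 3.39%, and in the classes of 2 to 5, 5 to 10 and 10 to 20 CPM it was 1.16%, 0.532% and 0.195%. Above 20 CPM it was 0.0101%, that is 1 of 9892 features. The fall was smaller for features with LP08 at most at 1% of their Chiifu level, those without a read included. Their share was 4.69%, 4.04%, 2.25%, 1.67% and 0.869% in the same classes. Above 20 CPM, 85 features had LP08 reads at over 0 to 1% of the Chiifu level. At its Chiifu level a gene would have given 443 to 7466 reads over the 6 LP08 libraries, with a median of 1341, a range that the Chiifu threshold and the LP08 totals fix from below. Taken against a floor of 3 counts over the 6 LP08 libraries, which is 0.00906 CPM, the mean level was at least 148-fold higher in Chiifu for the lowest gene, at least 2489-fold higher for the highest, and at least 447-fold higher for the median gene. These bounds rest on the values that chose the genes and cover counting error only. They take each count as an independent molecule, which was not tested.

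A count of exactly 0 was one end of a wider group. A further 308 of the 21682 features, or 1.42%, had LP08 reads at more than 0 and at most 1% of their Chiifu level, with a median of 6 reads over the 6 LP08 libraries and a median Chiifu level of 9.75 CPM. The 77 genes were 20% of all features at or under 1%. Most features, 17728 or 81.8%, had an LP08 level between 50% and 200% of their Chiifu level. Of the 21682 features, 77 had 0 reads over the 6 LP08 libraries, 27 had 1, 56 had 2, 21 had 3, 26 had 4 and 20 had 5. In every library more features had a count of 2 than a count of 1, with 2.67 to 3.56 times as many in Chiifu libraries and 1.79 to 2.27 times as many in LP08 libraries, so single counts may not be independent molecules. The part of this in the count of 77 was not tested.

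**Figure D1:**
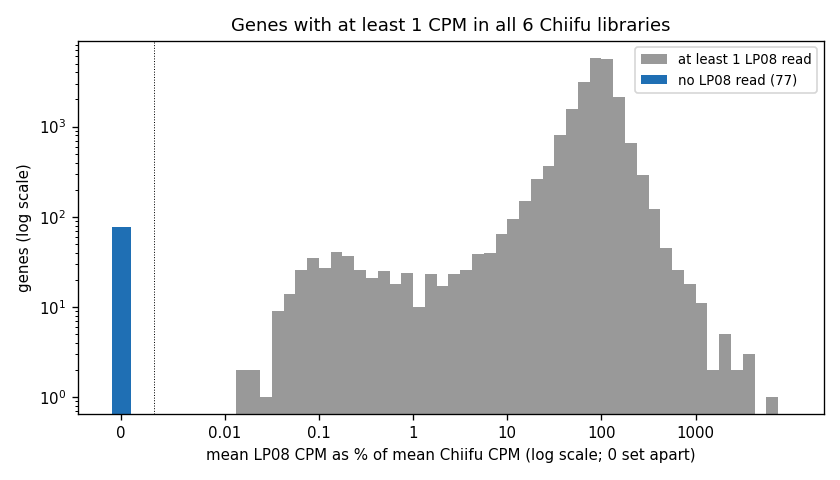
LP08 level as a share of the Chiifu level for the 21682 Bra features with at least 1 CPM in all 6 Chiifu libraries, as the number of features per class (log axis). There were 77 features without an LP08 read, 308 at over 0 to 1% and 17728 at 50 to 200%. Between these lay 242 features at over 1 to 10% and 2482 at over 10 to 50%.

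Just inside the Chiifu threshold were Bra001964 and Bra002882, whose lowest Chiifu libraries held 1.00 and 1.01 CPM. Just outside it, without any LP08 read, were Bra005509 and Bra001759, whose lowest Chiifu libraries held 0.980 and 0.978 CPM. Just outside the LP08 threshold were 27 features with 1 LP08 read in all, among them Bra002582 with a mean of 4.96 CPM and Bra002806 with a mean of 3.44 CPM in Chiifu.

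Within Chiifu, light and dark seedlings were compared with edgeR's quasi-likelihood test on all 31239 features that passed the filter on low counts, and all 77 genes passed it. With a Benjamini-Hochberg adjusted p under 0.05, 33 of the 77 genes were called, 42.9%, against a background of 67.5% of all tested features. Of these, 26 genes fell in light (33.8%, background 33.6%) and 7 rose in light (9.09%, background 33.9%). Among the 21605 other features with at least 1 CPM in all 6 Chiifu libraries, 69.5% were called, 38.1% lower and 31.4% higher. Not weighted by level, the share lower in light was near that of all tested features. The share higher in light was below that of all tested features.

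Fewer calls went with lower counts. When the shares of the other features were weighted to the abundance classes of the 77 genes, 54.9% were called, 26.4% lower and 28.5% higher in light. At a like level, then, the share higher in light was 9.09% in the genes read in Chiifu only, against 28.5% in the other features. The share lower in light was 33.8%, against 26.4%. These differences were not tested. The standard error of the log2 fold change had a median of 0.288 in the 77 genes. It was 0.180 in all the other features, here not weighted to the abundance classes.

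The log2 fold change of light over dark was below 0 for 54 genes and above 0 for 23. Its median was -0.46, with an interquartile range from -1.0 to 0.13, against -0.11 for the other features at or above 1 CPM and 0.00 for all tested features. Summed over the 77 genes, the level was 324 ± 26.6 CPM in light and 489 ± 28.9 CPM in dark (SD, n = 3 each), with 295.5, 348 and 328 CPM in the 3 light libraries and 522, 471 and 473 CPM in the 3 dark libraries. Every light library lay under every dark library. These sums were scaled by library totals alone, and with that scaling the median log2 fold change of all tested features was -0.10. In whole seedlings, fewer cells of a type and less RNA per cell cannot be told apart. Without Bra031046, the gene that rose most, the means were 299 CPM in light and 487 CPM in dark.

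**Figure D2:**
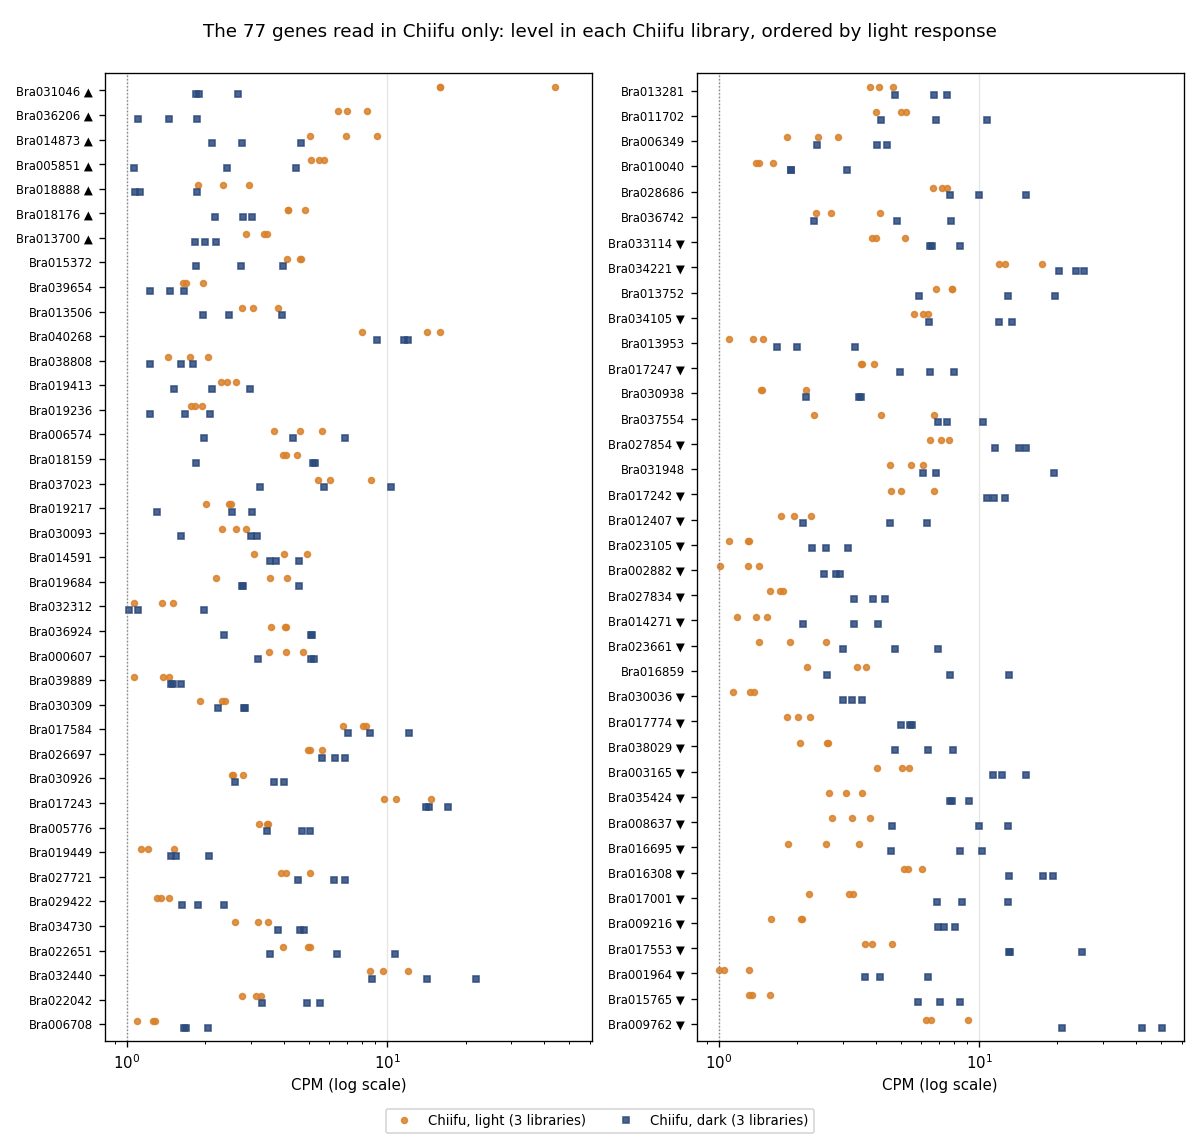
Level of the 77 genes in each Chiifu library (CPM, log axis), 1 row per gene ordered by the log2 fold change of light over dark, with 3 light libraries as circles and 3 dark libraries as squares. Triangles mark the 7 genes called higher (pointing up) and the 26 called lower (pointing down) in light, and the 77 genes span 1.34 to 22.5 CPM in their mean over the 6 libraries.

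All 3 light libraries lay below all 3 dark libraries in 35 genes (45.5%, against 36.7% of all tested features and 41.9% of the other features at or above 1 CPM) and above them in 8 genes (10.4%, against 33.4% and 30.3%), and the groups overlapped in 34 genes. Of the 26 genes called lower in light, 18 fell by at least 2-fold, and the groups did not overlap in 25. The exception was Bra012407, with 1.94, 2.27 and 1.73 CPM in light and 4.53, 6.28 and 2.10 CPM in dark. The 7 genes called higher in light had no overlap, and 4 of them rose by at least 2-fold.

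The genes that fell most in light were Bra009762 and Bra015765. Bra009762, the most abundant of the genes in dark seedlings, had 6.27, 9.06 and 6.54 CPM in light, against 42.3, 20.8 and 50.3 CPM in dark. The lowest dark library held more than the highest light library, and the dark libraries differed widely among themselves. The log2 fold change was -2.29 ± 0.35 (SE, edgeR adjusted p = 0.000552). Bra015765 had 1.31, 1.57 and 1.34 CPM in light and 8.47, 5.80 and 7.09 CPM in dark, a log2 fold change of -2.23 ± 0.25 (SE, edgeR adjusted p = 7.27e-05), with both groups close together within themselves.

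Next in size of the fall, and chosen for naming after their values were seen, were 6 genes with a log2 fold change between -1.98 and -1.48. Bra001964, at the Chiifu threshold, had 1.00, 1.31 and 1.05 CPM in light and 4.16, 3.65 and 6.37 CPM in dark (log2 fold change -1.98 ± 0.33 SE, edgeR adjusted p = 0.000774). Bra016308 had 5.35, 5.16 and 6.05 CPM in light and 17.7, 13.0 and 19.2 CPM in dark (log2 fold change -1.49 ± 0.22 SE, edgeR adjusted p = 0.000391). In both, the light libraries lay close together and far below the dark libraries. Bra017001 had 2.22, 3.27 and 3.16 CPM in light and 8.62, 6.91 and 12.9 CPM in dark, and Bra016695 had 1.84, 3.46 and 2.57 CPM in light and 8.47, 4.59 and 10.3 CPM in dark. Their dark libraries were wider apart, and still each lay above every light library. The other 2, Bra017553 and Bra009216, stand in runs and are given with them. The smallest falls that passed the test were those of Bra034221, given below with the abundant genes, and Bra033114, which had 3.89, 5.17 and 4.03 CPM in light and 8.44, 6.61 and 6.45 CPM in dark, without overlap (log2 fold change -0.61 ± 0.21 SE, edgeR adjusted p = 0.0308).

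The genes that rose most in light were Bra031046 and Bra036206. Bra031046 had 15.9, 44.1 and 15.9 CPM in light, against 2.68, 1.84 and 1.90 CPM in dark. The groups lay far apart, with light replicate 2 far above the other light libraries. The log2 fold change was 3.66 ± 0.44 (SE, edgeR adjusted p = 0.000148), a 12.6-fold difference, and 3.04 without light replicate 2. Bra036206 had 7.01, 8.33 and 6.47 CPM in light and 1.44, 1.86 and 1.10 CPM in dark, without overlap, a log2 fold change of 2.42 ± 0.25 (SE, edgeR adjusted p = 4.84e-05).

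The other 5 genes called higher in light were chosen for naming after their values were seen. They were Bra014873, Bra005851, Bra018888, Bra018176 and Bra013700, with log2 fold changes of 1.24, 1.16, 0.93, 0.83 and 0.79 and edgeR adjusted p-values between 0.0193 and 0.0409. The count of genes called higher depended on single libraries. It was 3 without Chiifu dark replicate 1, 3 without Chiifu light replicate 1 and 4 without Chiifu light replicate 2, against 7 with all libraries.

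**Figure D3:**
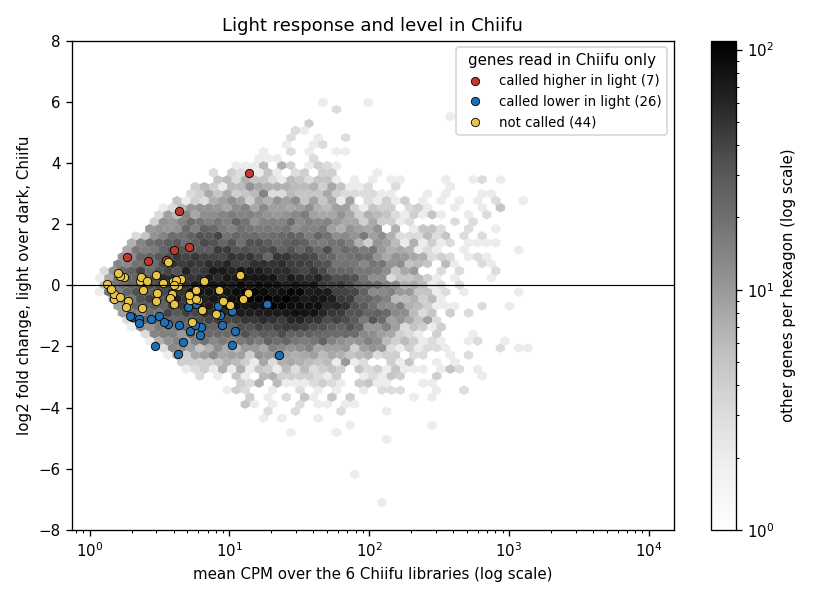
Log2 fold change of light over dark in Chiifu against the mean Chiifu level (CPM, log axis), the 77 genes over the other features with at least 1 CPM in all 6 Chiifu libraries. The 26 genes called lower run down to -2.29 and the 7 called higher run up to 3.66.

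Of the 6 most abundant genes, Bra009762 and Bra034221 fell in light, Bra031046 rose, and the other 3 did not pass the test. Bra034221 had 12, 17.5 and 12.6 CPM in light and 25.4, 23.5 and 20.3 CPM in dark, without overlap (log2 fold change -0.61 ± 0.17 SE, edgeR adjusted p = 0.0120). Bra017243 had 9.70, 10.8 and 14.8 CPM in light, against 17.1, 14.5 and 14.1 CPM in dark, and Bra040268 had 7.97, 14.2 and 16.0 CPM in light, against 9.11, 11.6 and 12 CPM in dark. In these last genes the groups overlapped, and the 95% intervals of the log2 fold change ran from -0.71 to 0.19 for Bra017243 and from -0.30 to 0.94 for Bra040268. Bra032440 had 8.60, 9.59 and 12.1 CPM in light and 21.9, 8.73 and 14.2 CPM in dark (log2 fold change -0.46 ± 0.32 SE, edgeR adjusted p = 0.236). Its lowest dark library, replicate 2, lay among the light libraries, and without it the log2 fold change was -0.75 with an edgeR adjusted p of 0.0220. Without dark replicate 1, its highest library, the log2 fold change was -0.11 with an edgeR adjusted p of 0.770.

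Of the 44 genes that were not called, 22 had a 95% interval within 1 of 0 on the log2 scale, so that for these a 2-fold change in either direction lay outside the interval. The interval of the other 22 reached a 2-fold change. Their log2 fold changes lay between -1.20 and 0.76.

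Dark libraries varied more than light libraries. The coefficient of variation within a group had a median of 13.8% in light and 25.3% in dark over the 77 genes, and of 9.04% in light and 18.1% in dark over the other features. The medians of the other features were not weighted to the abundance classes of the 77 genes, which were of lower abundance. The dark libraries differed by at least 2-fold among themselves in 22 genes, and the light libraries in 3. Of those 22 genes, Chiifu dark replicate 3 was the lowest dark library in 14 and the highest in 6. Whatever the spread, it was the lowest in 53.2% of the 77 genes and 52.1% of the other features. It was the highest in 24.7% of the 77 genes and 33.3% of the other features. The most variable genes were Bra031948 and Bra016859. Bra031948 had 5.48, 4.56 and 6.08 CPM in light and 6.85, 6.07 and 19.4 CPM in dark, where replicate 3 alone was high (log2 fold change -0.93 ± 0.48 SE, edgeR adjusted p = 0.120). Without dark replicate 3 the log2 fold change was -0.11 (adjusted p = 0.696), and without dark replicate 2 it was -1.23 (adjusted p = 0.0484). Bra016859 had 2.17, 3.39 and 3.67 CPM in light and 7.72, 13.0 and 2.59 CPM in dark, where replicate 3 lay among the light libraries. Its log2 fold change was -1.20 ± 0.50 (SE, edgeR adjusted p = 0.0624), against -1.60 without dark replicate 3 (adjusted p = 0.00212) and -0.64 without dark replicate 2 (adjusted p = 0.242). With all libraries it was called by DESeq2 (log2 fold change -1.24, adjusted p = 0.0257) and by limma-voom (log2 fold change -1.04, adjusted p = 0.0475).

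The ID numbers of the 77 genes ran from 607 to 40268, in a range of Bra numbers from 1 to 41174, which is 533 Bra features for each gene. The gap between successive genes had a median of 371.5 and the distance to the nearest other gene a median of 216. They were spread unevenly over the ID range: in blocks of 5000 numbers, the block from 15001 to 20000 held 20 of the 77, which was 0.752% of its expressed features, against 0.142% to 0.521% in the other blocks.

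One run of genes at most 5 numbers apart was found, of Bra017242, Bra017243 and Bra017247. Bra017242 had 4.58, 5.03 and 6.70 CPM in light and 10.8, 12.6 and 11.4 CPM in dark, without overlap (log2 fold change -0.98 ± 0.20 SE, edgeR adjusted p = 0.00275). Bra017243, next to it, overlapped between light and dark, as given above. Bra017247 had 3.54, 3.5 and 3.94 CPM in light and 6.45, 4.97 and 7.98 CPM in dark, without overlap (log2 fold change -0.72 ± 0.26 SE, edgeR adjusted p = 0.0353). Its call was lost when Chiifu dark replicate 1 or 3 or any Chiifu light replicate was left out, with adjusted p-values from 0.0683 to 0.105. With Chiifu dark replicate 3 left out of the rule, 7 genes in place of 3 lay within 5 numbers of another.

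Of the 3 features between these genes, Bra017244 and Bra017245 were read in LP08. Bra017244 averaged 1.57 ± 0.131 CPM in Chiifu light and 3.79 ± 0.173 CPM in Chiifu dark, against 1.00 ± 0.255 CPM in LP08 light and 1.54 ± 0.378 CPM in LP08 dark (SD, n = 3 each). Bra017245 averaged 6.49 ± 0.649 CPM in Chiifu light and 11.5 ± 1.06 CPM in Chiifu dark, against 8.53 ± 0.592 CPM in LP08 light and 11.8 ± 0.164 CPM in LP08 dark. Bra017246 had no read in any library. The run of IDs was thus broken by Bra017244 and Bra017245, which were read in both lines.

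At a distance of at most 20 there were 6 pairs of successive genes, which held 11 of the 77. None of the 35 genes read in LP08 only lay within 20 numbers of another. Of the 77 genes, 3 lay within 10 numbers of a gene read in LP08 only: Bra026697 lay 3 numbers from Bra026694, and Bra030926 and Bra030938 each lay 6 numbers from Bra030932. Bra026697 had 4.96, 5.06 and 5.62 CPM in Chiifu light and 6.87, 6.30 and 5.60 CPM in Chiifu dark. Bra026694 had 2.60, 3.04 and 2.87 CPM in LP08 light and 3.32, 3.75 and 4.0 CPM in LP08 dark. Between them, Bra026695 was read in both lines, with 17.5 ± 3.83 CPM in Chiifu light and 26.4 ± 2.42 CPM in Chiifu dark, against 27.8 ± 1.40 CPM in LP08 light and 33.0 ± 1.55 CPM in LP08 dark (SD, n = 3 each).

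**Figure D4:**
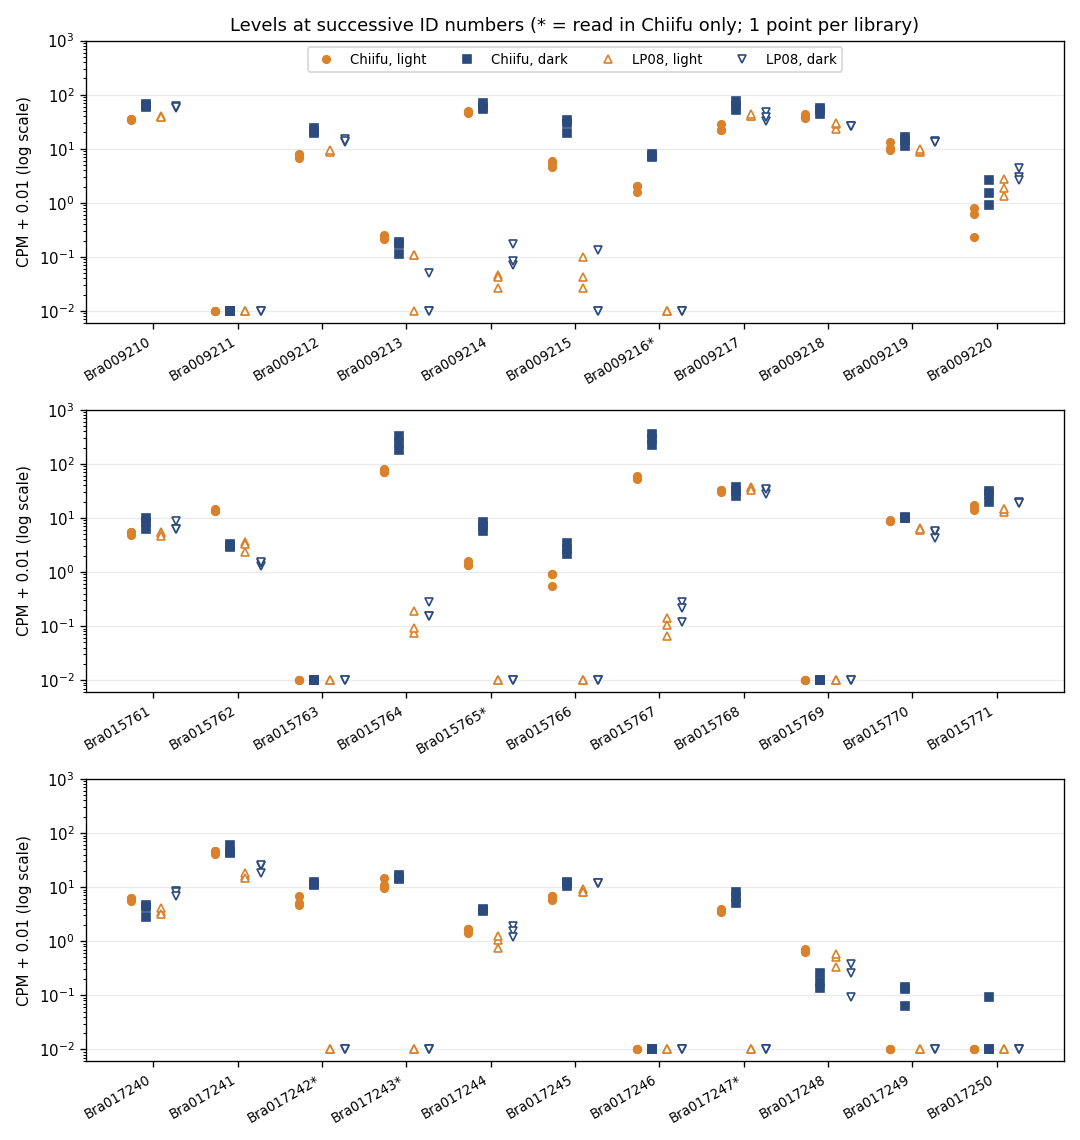
Level of features by ID number in 3 runs that hold genes read in Chiifu only, for Chiifu and LP08 (CPM plus a small constant, log axis, 1 point per library, light left of dark). Features without an LP08 read or with LP08 at most at 1% of Chiifu stand beside features with like levels in both lines.

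Features close in number to the 77 genes were compared between the lines, since the rule did not use their counts. At distances of 1 to 5 there were 748 other Bra features, of which 75 (10%) had no read in any library, against 9.06% of all Bra features, and 565 were tested. In light 167 of the 565 were higher in Chiifu (29.6%, background 25.0%) and in dark 180 (31.9%, background 27.9%), with edgeR adjusted p-values under 0.05. The highest shares were at distance 1, where 43 of 107 tested features were higher in Chiifu in light (40.2%) and 46 in dark (43.0%). At distances of 2 to 5 the shares lay between 17.5% and 32.4% in light and between 25.0% and 31.5% in dark.

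Of the 107 tested features next in number to one of the 77, 25 (23.4%, background 9.24%) were higher in Chiifu by at least 2-fold in both treatments. That background covers all tested features, and the share was 8.99% of the tested Bra features other than the 77. The 25 features lay next to 22 of the 77 genes. Another 8 (7.48%) were lower in Chiifu by at least 2-fold in both, against 5.96% of the tested Bra features other than the 77. This count at distance 1 was chosen after the values by distance were seen.

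**Figure D5:**
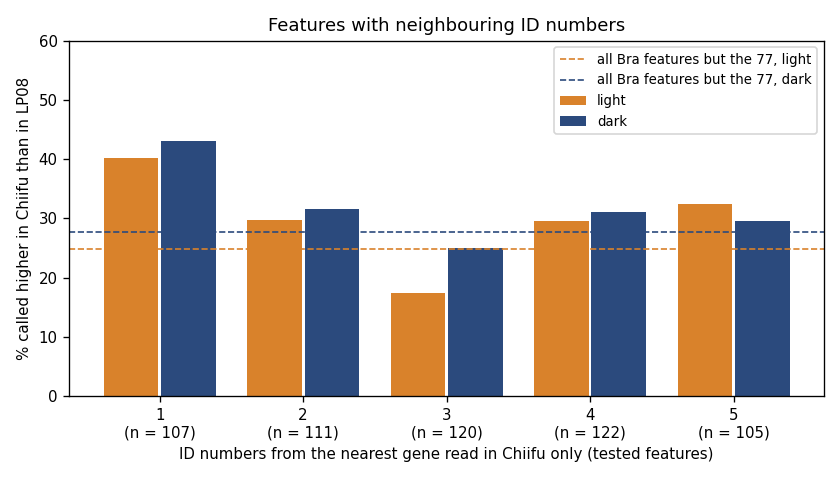
Share of tested features called higher in Chiifu than in LP08 (percent), by distance in ID number from the nearest of the 77 genes, in light and in dark. At distance 1 the shares are 40.2% in light and 43.0% in dark, above the dashed lines for all other Bra features.

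With a wider rule, chosen after the data were seen, runs of successive IDs were sought in which every feature had a mean of at least 0.5 CPM in Chiifu and an LP08 level of at most 1% of it. This held for 705 Bra features, 2.59% of those with that Chiifu level, and 111 of the 705 stood in 51 runs of at most 5 features. Of the 77 genes, 10 (13.0%) stood in 9 such runs, against 15.7% of all 705 features. These 9 runs held 21 features. Among the 92 other features next in number to one of the 77 genes that had at least 0.5 CPM in Chiifu, 9 (9.78%) had an LP08 level of at most 1%, against 2.31% of all other Bra features with that level. Most of the 92, 60 features or 65.2%, had an LP08 level over 50%, against 82.0% of the others.

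Of the 21 features in the 9 runs, 9 were called lower (background 33.6%) and 2 higher (background 33.9%) in Chiifu light. The longest of these 9 runs was that from Bra015764 to Bra015767, whose 4 features fell in light. Bra015764 had 70.2, 79.9 and 69.7 CPM in light and 240, 177 and 330 CPM in dark, with 47 reads in all over the LP08 libraries. Bra015767 had 51.5, 59.6 and 56.6 CPM in light and 290, 224 and 351 CPM in dark, with 46 LP08 reads in all. Between them stood Bra015765, given above, and Bra015766, with 0.906, 0.538 and 0.920 CPM in light and 2.63, 3.41 and 2.14 CPM in dark, both without an LP08 read. The light and dark libraries did not overlap in any of the 4. Their log2 fold changes were -1.67, -2.23, -1.66 and -2.27 in order of ID, with edgeR adjusted p-values from 2.19e-06 to 0.00302. Bra015768, the next feature, had like levels in both lines, with 32.3 ± 1.48 CPM in Chiifu light and 31.1 ± 6.01 CPM in Chiifu dark, against 35.3 ± 1.80 CPM in LP08 light and 31.2 ± 3.29 CPM in LP08 dark (SD, n = 3 each).

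In the run from Bra009214 to Bra009216 the response to light was not the same for each feature. Bra009216, the one without an LP08 read, had 1.59, 2.08 and 2.07 CPM in light and 6.94, 7.31 and 8.11 CPM in dark, without overlap (log2 fold change -1.86 ± 0.23 SE, edgeR adjusted p = 0.000133). Bra009215, with 14 LP08 reads, fell too, with 5.50, 5.93 and 4.57 CPM in light and 29.7, 19.2 and 33.3 CPM in dark (log2 fold change -2.26, adjusted p = 0.000201). Bra009214, with 20 LP08 reads, had a log2 fold change of -0.24 that did not pass the test (adjusted p = 0.201). The pair Bra017552 and Bra017553 moved in opposite directions. Bra017553, without an LP08 read, had 4.61, 3.65 and 3.87 CPM in light and 24.8, 13.1 and 13.1 CPM in dark (log2 fold change -1.95, edgeR adjusted p = 0.000395). Bra017552, with 4 LP08 reads, had 15.9, 21.2 and 19.7 CPM in light and 3.35, 2.37 and 3.43 CPM in dark (log2 fold change 2.73, edgeR adjusted p = 1.10e-05).

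Set beside the 33.8% lower and 9.09% higher of the 77 genes, 123 (39.9%, background 33.6%) of the 308 features with LP08 reads at over 0 to 1% of the Chiifu level were lower and 53 (17.2%, background 33.9%) higher in Chiifu light. The 308 are part of the 21605 other features with at least 1 CPM in all 6 Chiifu libraries. Of these 21605, 38.1% were lower and 31.4% higher in Chiifu light. The median log2 fold change of the 308 was -0.50, and their difference from the 77 genes was not tested. Of the 35 genes read in LP08 only, 14 fell and 5 rose in LP08 light against LP08 dark, 54.3% in all, against a background of 68.5% of all tested features in LP08, with 35.4% lower and 33.1% higher. Their median log2 fold change was -0.46, against -0.11 for the other features at or above 1 CPM in all 6 LP08 libraries. The difference in response between the 77 genes and these 35 was not tested.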

How the data were processed

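Libraries came from DNase-treated whole-seedling RNA and the stranded TruSeq mRNA kit, per the labels' protocols. The authors deposited raw counts, 1 whole number per feature and library. Per the submitters' processing notes, the tools included TopHat2, featureCounts, FastQC and edgeR; versions are not given. The sources used here give neither build, annotation, strand setting nor unit of counting (reads or read pairs), so overlapping, antisense and near-identical genes cannot be told apart. No column was left out.

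CPM used library totals. Counts were fitted with edgeR 4.0.16 in R 4.3.3 (TMM scaling, robust quasi-likelihood test, 4 group means over 12 libraries) on the 31239 features passing filterByExpr with a minimum count of 10 and a minimum total of 15. Standard errors follow from the test statistic, and 95% intervals use its degrees of freedom. P-values were adjusted over all tested features, and a call is an adjusted p under 0.05. Scripts were tested on simulated data. Alternatives used DESeq2 1.42.0, limma 3.58.1, other scalings and filters, each library left out, and a replicate block.

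The 77 genes, the lists and the tests were chosen with earlier results of these data known. Named genes were the 6 most abundant, the 2 called genes with the largest change in each direction without overlap, the 2 with the smallest change at 10 CPM or more, the genes in runs, the 2 most variable, and those at each threshold. No libraries of a group were duplicates, since the chi-square statistic divided by its degrees of freedom was 13.7 or more in each of 12 pairs.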

Additional observations from a re-analysis of the deposited data

How the results depend on the processing

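The count of 77 genes is set by the rule. It was 136 with a minimum of 0.5 CPM in each Chiifu library, 40 with 2 CPM and 11 with 5 CPM, and it was 117 when 1 read was allowed in each LP08 library and 227 when 5 reads were allowed over all 6. With 1 library left out it lay between 77 and 98. Genes with another at most 5 numbers away numbered 3, 15 with 0.5 CPM, 0 with 5 CPM, 5 with 1 read allowed and 25 with 5 reads allowed, and 3 to 7 with 1 library left out (7 without Chiifu dark replicate 3). Genes in runs of the wider rule numbered 10, and 6 with a minimum of 1 CPM; the range over left-out libraries was 9 to 10. The 26 genes lower in light became 21 to 31 with 1 library left out and 23 to 34 in the other settings, and the 7 higher became 3 to 7 and 5 to 8. No called gene changed sign in any of the 20 alternatives, and 23 of the 33 were called in all of them, 21 of these lower. Scaled by library totals alone, the median log2 fold change of the 77 genes was -0.58 and that of all tested features -0.10, a difference of -0.48. With 1 library left out, the median of the 77 genes lay between -0.48 and -0.38. Of the 35 genes read in LP08 only, limma-voom called 9 higher. Replicate numbers were not taken as pairs, since same-numbered Chiifu libraries had correlations of -0.02 to 0.18, 1 of 3 over 0.1, although 4 of 6 libraries correlated best with their own number. With the replicate block 23 genes were lower and 6 higher, and 29 of the 33 calls were shared. The 25 features next to a gene and higher in Chiifu by 2-fold became 23 to 27 with 1 library left out.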
